A study of Homo sapiens with 3 samples.

Results

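The genes described here are MAGEL2, necdin (NDN), MAGED1, MAGED2, MAGEF1, MAGEH1 and MAGEE1, 7 type II MAGE genes. They were taken as every probe set whose platform annotation names 1 of these genes and no other gene, which gave 9 of the 54613 non-control probe sets and 7 of the 19775 genes with a probe set of their own. MAGED2 and MAGEE1 had 2 probe sets each, and the other genes had 1. Total RNA of SK-Mel-28, an established cell line from a human melanoma, was hybridised to 3 Affymetrix U133 Plus 2.0 arrays, each in a single colour. The scrambled group was 1 array, of cells with a stably integrated scrambled hairpin insert. The siRNA group was 2 arrays, labelled B1 and B2, of cells that stably expressed a hairpin against melanotransferrin (MTf, gene MELTF), which the sample labels place at bases 2048 to 2066 of its transcript. All cells carried the same vector backbone, pSilencer 3.1-H1 neo, in which the H1 promoter drives the hairpin. The labels do not say whether B1 and B2 are clones, pools or repeat cultures, so that the spread between them may be technical. B1 is siRNA array 1 and B2 is siRNA array 2 in what follows. The genes were chosen with the siRNA against scrambled values in view, and those values are therefore given as a description, with no test.

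MAGE proteins share a MAGE homology domain, through which several of them bind RING-type ubiquitin ligases and alter which substrates these modify. Type I genes (MAGEA, MAGEB and MAGEC) lie on the X chromosome, are largely restricted to the germ line in healthy tissue and are switched on in many melanomas, whereas type II genes are expressed in many tissues, with high levels of several in brain. MAGEL2 and NDN lie side by side in the Prader-Willi region of chromosome 15 and are imprinted, being expressed from the paternal copy. In the gene order of the GRCh38.p14 assembly MAGEL2 was followed by NDN with no protein-coding gene between them, MAGED1, MAGED2, MAGEH1 and MAGEE1 lay on the X chromosome, and MAGEF1 lay on chromosome 3.

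Promoters were looked up because 6 of the genes read in 1 direction and 1 in the other, and because methylation of CpG dinucleotides in this region of chromosome 15 marks the silent maternal copy. RefSeq promoter sequences (GRCh38.p14) were found for 6 of the 7 genes, all but MAGEH1, and the 250 bases before the annotated start were used. The 2 imprinted neighbours are shown with MAGED1 and with MAGEF1, the gene that read in the opposite direction. Sequences run 5′ to 3′ on the gene's strand, and capitals mark CpG dinucleotides.
MAGEL2, chr15:23647868-23648117, minus strand: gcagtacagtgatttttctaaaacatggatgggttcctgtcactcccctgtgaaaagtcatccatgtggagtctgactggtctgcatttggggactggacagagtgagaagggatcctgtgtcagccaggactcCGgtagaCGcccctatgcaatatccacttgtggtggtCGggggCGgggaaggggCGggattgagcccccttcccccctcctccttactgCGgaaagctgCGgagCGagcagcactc
NDN, chr15:23687306-23687555, minus strand: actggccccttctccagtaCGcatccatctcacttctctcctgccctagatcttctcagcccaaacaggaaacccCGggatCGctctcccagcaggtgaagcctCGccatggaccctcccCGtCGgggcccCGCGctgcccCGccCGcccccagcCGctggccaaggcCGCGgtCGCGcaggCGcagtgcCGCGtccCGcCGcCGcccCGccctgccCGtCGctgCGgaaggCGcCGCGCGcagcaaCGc
MAGED1, chrX:51802826-51803075, plus strand: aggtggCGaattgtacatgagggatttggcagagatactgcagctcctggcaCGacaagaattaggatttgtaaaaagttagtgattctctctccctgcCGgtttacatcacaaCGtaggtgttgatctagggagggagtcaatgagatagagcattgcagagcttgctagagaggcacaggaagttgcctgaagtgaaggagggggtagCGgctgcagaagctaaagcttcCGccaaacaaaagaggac
MAGEF1, chr3:184712065-184712314, minus strand: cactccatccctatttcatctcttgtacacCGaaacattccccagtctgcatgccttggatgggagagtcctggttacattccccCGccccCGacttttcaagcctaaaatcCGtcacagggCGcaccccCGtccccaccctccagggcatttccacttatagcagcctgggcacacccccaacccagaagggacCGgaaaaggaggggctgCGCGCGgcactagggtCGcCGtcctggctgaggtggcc
The NDN sequence held 30 CpG dinucleotides with a GC content of 73.2%, and MAGEL2 held 8 with 57.2%. MAGEF1 and MAGEE1 held 12 each, and MAGED1 and MAGED2 held 6 each, against a median of 11 over the 27305 promoters of this length. The GC box GGGCGG, searched on both strands, was found in 5 of the 6 sequences, all but MAGED1, and in 42.31% of all promoters. Its G and C letters overlap the CpG count. The E-box CACGTG, the TCATGTG form of it and the cyclic AMP element TGACGTCA, searched on both strands, were in none of the 6 and in 6.49%, 2.58% and 1.77% of all promoters. These are letter matches in a fixed window, and methylation was not measured.

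Before deposit the arrays were brought to a like mean, and their median signals were 160.6 (scrambled), 174.3 (siRNA array 1) and 199.5 (siRNA array 2). Differences are on the log2(signal + 47.4) scale, so that those of dim probe sets come out too small, and the number of arrays limits their precision. On that scale the median of the 27306 probe sets past the filter on low signals was 0.11 higher on the siRNA arrays, and limma called 2.09% of them. Without the filter or without the trend limma called 1 probe set, which is of none of the genes named here, so that no call given below held under those settings. Centring the arrays on their medians lowered the mean siRNA minus scrambled difference of every probe set by 0.17. The shift was larger for siRNA array 2, whose median was higher, than for siRNA array 1. Melanocyte markers were bright on all arrays: the 6 with a probe set of their own (MLANA, PMEL, TYR, SOX10, MITF and S100B) read between 13842 and 69169. Among markers of other cell types, the summed signal of 5 fibroblast markers was 1698 (scrambled), 5621 (siRNA array 1) and 5822 (siRNA array 2). The rise in this sum came from LUM alone, a matrix proteoglycan gene, which read 598.6 against 4850 and 4841 (limma adjusted p = 0.00719). The other fibroblast markers did not rise on both siRNA arrays. COL1A1 read 671.9 against 487.9 and 565.1, COL1A2 136.2 against 119.8 and 86.2, PDGFRB 35.2 against 23 and 28.8, and DCN 256 against 139.9 and 301.3. The summed signal of 6 epithelial markers was 1989.5 against 2904 and 2775, and of 5 leukocyte markers 1683 against 1020.3 and 1074. That of 4 endothelial markers was 489.1 against 409.2 and 703.5, and of 5 neuronal markers 17448 against 12287 and 16045. Single genes weighed heavily in these sums too. KRT18 read 1308 against 2483 and 2148.5, whereas KRT8 read 483.2 against 207.6 and 297.1. LCP1 read 1130 against 477.8 and 384.7, whereas CD79A read 278.8 against 362.6 and 498.4. Most of the neuronal sum was TUBB3, with 14180 against 10656 and 13027.5. Several markers read no higher than 97.2, the brightest bacterial trp control, on all arrays. These were 3 epithelial, 2 leukocyte, 1 fibroblast, 1 endothelial and 1 neuronal marker. The part of other cell types in the results was not tested. In the brightest probe set of the target gene MELTF the signals were 32608 against 18968 and 18974 (limma adjusted p = 0.0699), whereas another read 8284 against 10567 and 11199. The remaining MELTF probe sets read 546.4 against 693.7 and 665.7, and 915.2 against 699.7 and 283.6. A lower MELTF signal was therefore not seen in every probe set, and none of them passed the limma threshold.

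Of the 9 type II MAGE probe sets, 8 read higher on both siRNA arrays than on the scrambled array, and 1, that of MAGEF1, read lower on both. By gene this was 6 higher and 1 lower. MAGEL2 was near background on the scrambled array, and among probe sets bright on all arrays the largest differences were in 1 MAGED2 probe set and in MAGED1. Past the filter, which asked for a mean log2 value over 7.74, the median of all probe sets, were 8 of the 9. Of these, 7 were higher on both siRNA arrays and 1 was lower on both, where 46.4% and 30.9% of the 27306 probe sets tested were higher or lower on both. At least 2-fold higher on both were 4 of the 8 (MAGEL2, MAGED1, the dimmer MAGED2 set and MAGEH1), against 3.93% of probe sets tested, and 0 were at least 2-fold lower on both, against 1.83%. With arrays centred or quantile normalized MAGEH1 dropped under 2-fold and 3 of the 8 were left. MAGEL2 passed the filter only through the siRNA arrays, its scrambled value being 5.75. Since the genes were chosen on this contrast, these counts describe the choice. In bulk RNA, a change in the number of cells expressing a gene and a change in RNA per cell cannot be told apart.

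**Figure D1:**
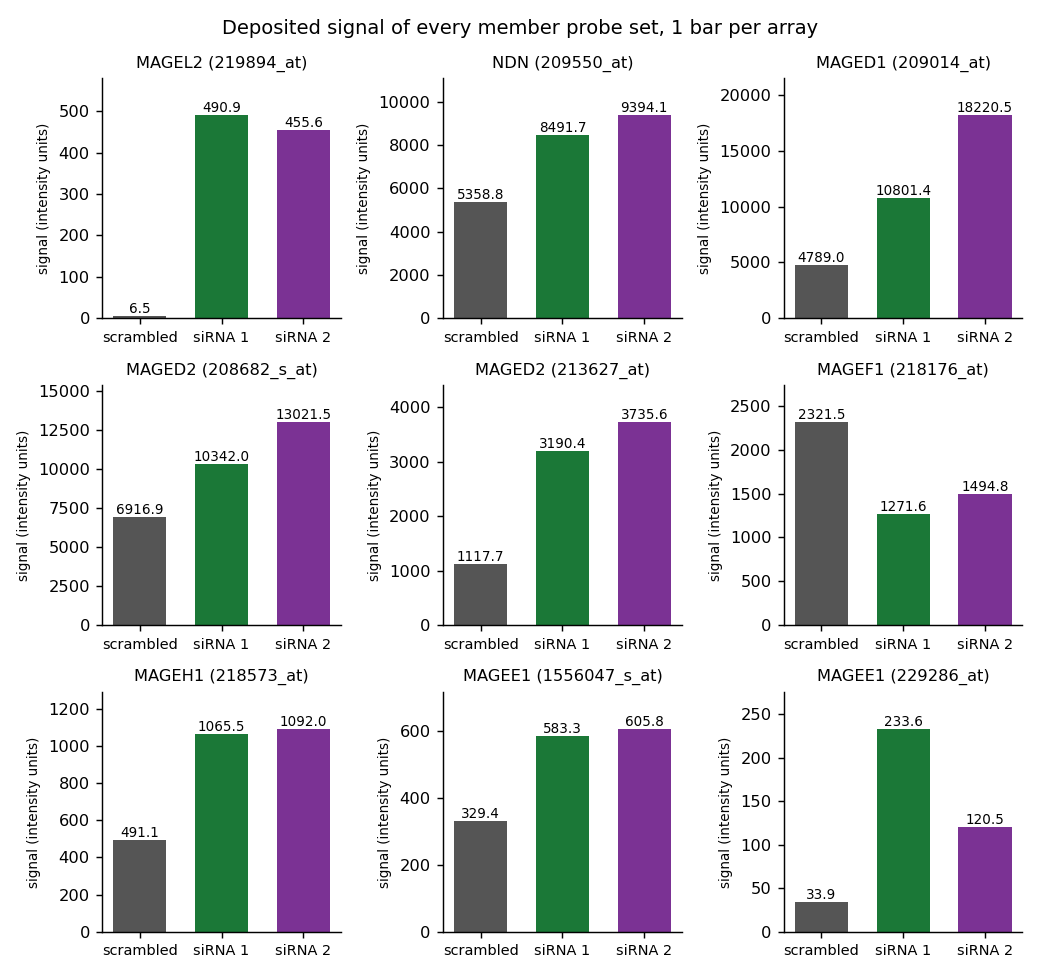
Deposited signal (intensity units, linear axis from 0) of each of the 9 probe sets on the scrambled array (grey), siRNA array 1 (green) and siRNA array 2 (purple), 1 bar per array and an axis of its own per probe set. MAGEL2 goes from 6.5 to 490.9 and 455.6, and MAGEF1 is the panel in which the scrambled bar is the tallest.

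MAGEL2 binds the ligase TRIM27 and the deubiquitinase USP7 on endosomes, where the complex acts on the actin-regulating WASH complex, and truncating mutations of it cause Schaaf-Yang syndrome. Its probe set read 6.5 on the scrambled array, with 490.9 and 455.6 for siRNA arrays 1 and 2. The siRNA arrays lay close together and far above the scrambled array. The latter lay just under the range of the bacterial trp control probe sets (7.0 to 97.2). Only controls with trp in their name were used for this range. Taking 97.2 as the least measurable level, MAGEL2 was at least 4.87-fold higher on the siRNA arrays in their geometric mean, with siRNA array 1 at least 5.05-fold higher and siRNA array 2 at least 4.69-fold. The log2 difference was 3.27 ± 0.07 (SD over the 2 siRNA arrays), but it rests on the pseudocount: it was 4.47 with a pseudocount of 15.5 and 1.82 with 177.5. The siRNA arrays differed from each other by 0.10 on the log2 scale (difference -0.098), a gap larger than that of 21.4% of probe sets tested.

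Necdin restrains proliferation in postmitotic neurons and binds E2F1 and p53. NDN had a scrambled signal of 5359 and siRNA signals of 8492 and 9394, or 158% and 175% of the scrambled signal. The gap between the siRNA arrays was smaller than the distance of either from the scrambled array. The log2 difference was 0.73 ± 0.10 (SD, n = 2), and 0.56 with arrays centred. In contrast to its neighbour MAGEL2, NDN was well above the trp controls on every array. Its difference exceeded that of 87.4% of probe sets tested.

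MAGED1, also known as NRAGE, binds the neurotrophin receptor p75 and has been linked to apoptosis. It read 4789 on the scrambled array, 10801 on siRNA array 1 and 18220.5 on siRNA array 2. Both siRNA arrays were more than 2-fold above the scrambled array, but they also lay apart from each other, with siRNA array 2 at 1.69 times siRNA array 1. The log2 difference was 1.54 ± 0.53 (SD, n = 2), from 1.17 (siRNA array 1) to 1.92 (siRNA array 2). The gap of 0.75 between the siRNA arrays was larger than that of 90.7% of probe sets tested, so the size of the MAGED1 difference depends on which siRNA array is taken.

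MAGED2 supports the expression of salt transporters in the developing kidney, and its loss causes a transient antenatal form of Bartter syndrome. The brighter of its probe sets had a scrambled signal of 6917 and siRNA signals of 10342 and 13021.5. The dimmer read 1118 against 3190 and 3736. Both were higher on both siRNA arrays, by different amounts: the log2 difference was 0.74 ± 0.23 in the brighter and 1.59 ± 0.16 in the dimmer (SD, n = 2 each). The mean over both probe sets was 1.16. Which of them reports the transcript better was not tested.

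MAGEH1, a small protein reported to bind p75, had a scrambled signal of 491.1 and siRNA signals of 1065.5 and 1092. Its siRNA arrays agreed most closely of the 9 probe sets, with a gap of 0.034 on the log2 scale, and both lay above 2-fold of the scrambled signal. The log2 difference was 1.06 ± 0.02 (SD, n = 2), or 0.89 with arrays centred or quantile normalized.

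MAGEE1 interacts with alpha-dystrobrevin at the dystrophin-associated complex. Its brighter probe set had a scrambled signal of 329.4 and siRNA signals of 583.3 and 605.8, a log2 difference of 0.77 ± 0.04 (SD, n = 2), or 0.60 with arrays centred. Its dimmer probe set read 33.9 against 233.6 and 120.5 and did not pass the filter. There the siRNA arrays lay apart in the other direction from MAGED1, with siRNA array 2 at 0.52 times siRNA array 1 (0.516), and the change was at least 1.73-fold higher in the geometric mean against the 97.2 level.

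MAGEF1 activates the ligase NSMCE1, which then targets MMS19, a factor that delivers iron-sulphur clusters to DNA repair enzymes. It was the only gene of the 7 that read lower: its scrambled signal was 2321.5 and its siRNA signals were 1272 and 1495, or 54.8% and 64.4% of the scrambled signal. Both siRNA arrays lay below the scrambled array, as they did in 30.9% of probe sets tested. The log2 difference was -0.73 ± 0.16 (SD, n = 2), and -0.90 with arrays centred. A lower value was seen in 6.48% of probe sets tested.

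**Figure D2:**
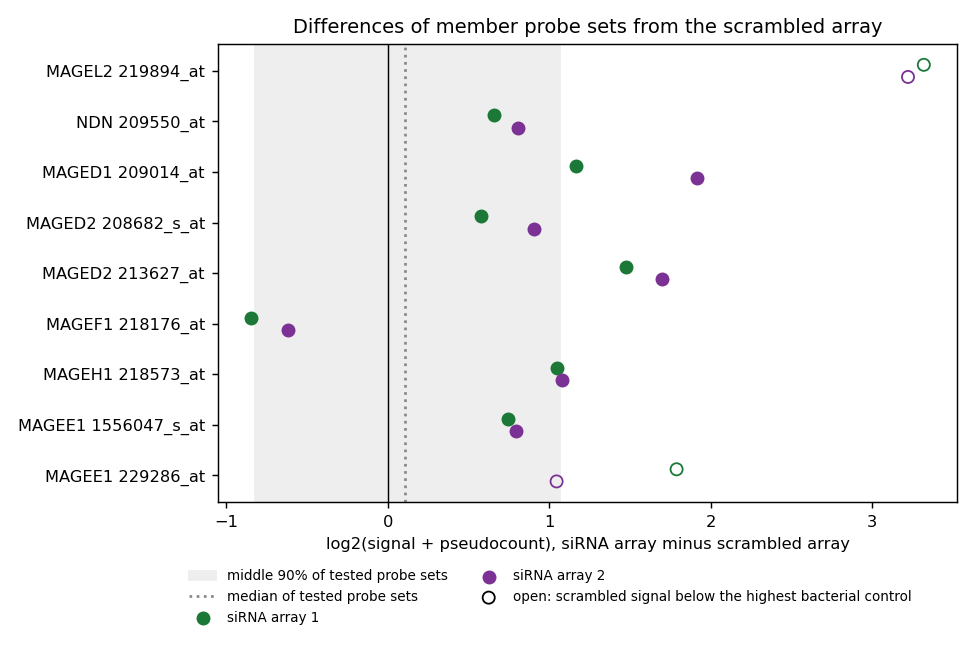
Difference of each siRNA array from the scrambled array on the log2(signal + 47.4) scale for the 9 probe sets, with siRNA array 1 in green and siRNA array 2 in purple. The grey band holds the middle 90% of the 27306 probe sets tested (-0.82 to 1.06) and the dotted line is their median, 0.11. Open points read under 97.2 on the scrambled array, the top of the bacterial trp control range, so their place rests on the pseudocount. MAGEF1 is the 1 row left of 0.

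In 7 of the 9 probe sets siRNA array 2 read above siRNA array 1, and in MAGEL2 and the dimmer MAGEE1 probe set it read below. The gap between the siRNA arrays was below the median of all probe sets tested (0.25) in MAGEL2, NDN, the dimmer MAGED2 set, MAGEF1, MAGEH1 and the brighter MAGEE1 set. The dimmer MAGEE1 set and MAGEL2 are left out of the order of differences, since their values rest on the pseudocount: that of the dimmer MAGEE1 set was 1.90 with a pseudocount of 15.5 and 0.73 with 177.5. In order of the mean difference on both siRNA arrays the others were MAGED2 (dimmer set, 1.59), MAGED1 (1.54), MAGEH1 (1.06), MAGEE1 (brighter set, 0.77), MAGED2 (brighter set, 0.74), NDN (0.73) and MAGEF1 (-0.73). Neighbours in this order between 1.54 and 1.59, and again between 0.73 and 0.77, lay closer together than the larger of their SDs.

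The genes were set beside the measured genes next to them on their chromosomes, up to 10 past the filter on each side, a comparison chosen after the values were seen. On chromosome 15 there were 18 such genes around MAGEL2 and NDN, from LINC01193 to APBA2. Their median log2 difference was 0.46, against 0.097 over all genes tested, with 13 above 0 and 5 below. The median rested on which genes were counted. Among these neighbours were all 11 tested genes of the Prader-Willi region list given below. The median of that list was 0.14, or -0.026 with arrays centred. Outside that list were LINC01193, LOC646214, HERC2P7, PWAR6, WHAMMP2, PDCD6IPP2 and APBA2. Over all 413 other measured genes of chromosome 15 the median was 0.18. Of those, 57.4% read higher on both siRNA arrays, against 46.6% of all genes. None of the neighbours passed the limma threshold (0 of 18), where 2.72% of all genes tested did. The members were chosen on this contrast, and MAGEL2 exceeded 99.9% of probe sets tested, so ranks against neighbours describe the choice. All 18 neighbours lay below MAGEL2, whereas 5 lay at least as high as NDN. The nearest on either side, MKRN3, an imprinted ligase gene that restrains puberty, read 136 against 264.5 and 226.8, and NPAP1 read 131.9 against 277.8 and 355.1.

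Around MAGEF1 the 20 neighbours, from DVL3 to DGKG on the long arm of chromosome 3, had a median of -0.49, with 14 below 0 and 6 above. MAGEF1 lay within their range, and 8 of the 20 were at least as low. Limma called 2 of the 20 neighbours, both lower, where 1.17% of all genes tested were called lower. They were the RNA-binding protein gene IGF2BP2 (log2 difference -1.08, limma adjusted p = 0.0493) and the splicing factor gene TRA2B (-0.96, limma adjusted p = 0.0433). Over all 708 other measured genes of chromosome 3 the median was -0.13. The stretch is in the 3q27 to 3q29 part of the chromosome, on which MELTF also lies.

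On the X chromosome the neighbours did not stand away from 0. The median over 20 neighbours each was -0.0034 for MAGED1, 0.045 for MAGED2, 0.059 for MAGEH1 and -0.029 for MAGEE1, signs that centring the arrays would turn for MAGED2 and MAGEH1. These sets overlap: MAGED2 and MAGEH1 share 16 neighbours, MAGED1 and MAGED2 share 6, and MAGED1 and MAGEH1 share 2. None of the 20 was as high as MAGED1 or as MAGEH1, and 1 was as high as the brighter set of MAGED2 or of MAGEE1. A neighbour of MAGEE1, the nucleosome assembly gene NAP1L2, fell by 2.998 on the log2 scale (limma adjusted p = 0.0277). Of all genes tested 1.17% were called lower. Over 403 other genes of the X chromosome the median was 0.12.

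**Figure D3:**
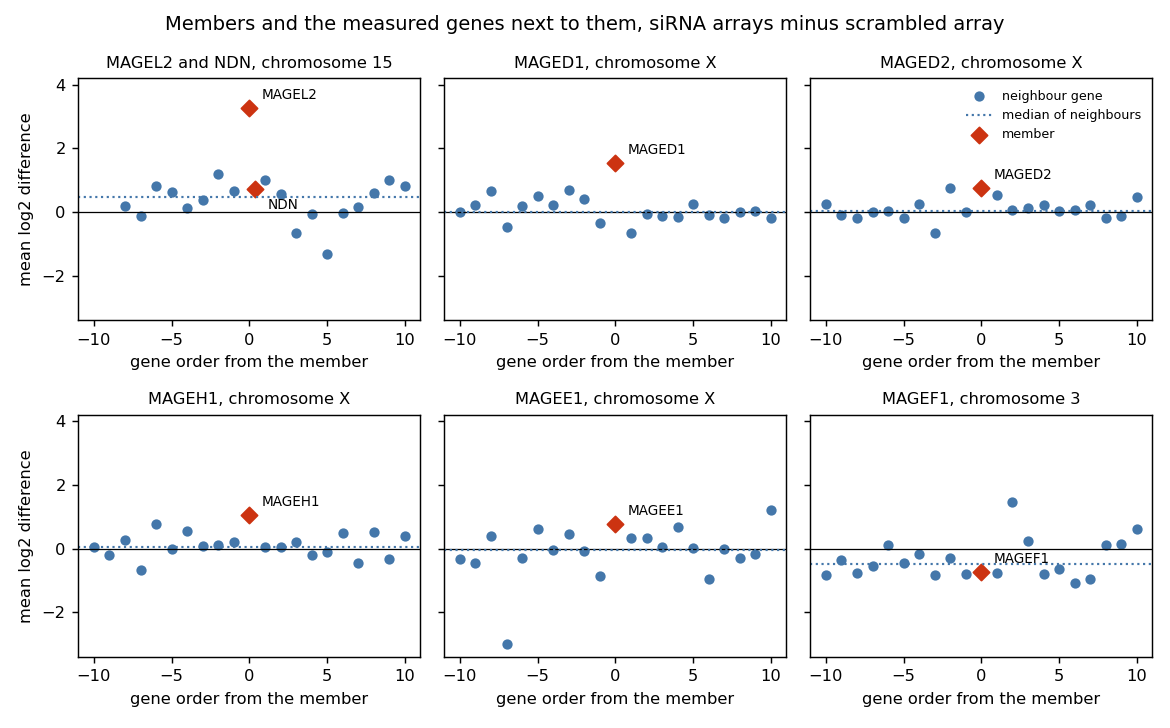
Mean log2 difference (siRNA arrays minus scrambled array) of the 7 genes (red diamonds) and of the measured genes next to them (blue points), in gene order along the chromosome, with the median of the neighbours as a dotted line. MAGEL2 stands above all its 18 neighbours, and MAGEF1 lies among its 20 neighbours, whose median is -0.49. The 7 genes were chosen on this contrast, and the neighbours were not.

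Of 5 other type II genes, 3 had a probe set of their own and only 2 were past the filter and tested, too few to read a count from. Neither was called by limma (0 of 2, and 0 with an unadjusted p below 0.05), where 2.72% of the 12382 genes tested were called and 23.1% had an unadjusted p under 0.05. NSMCE3, the MAGE subunit of the SMC5/6 DNA repair complex, read 1114 against 798.4 and 901.2 (-0.37 ± 0.28, SE; limma adjusted p = 0.505). TRO, the gene next to MAGED2, read 173.8 against 230 and 329.3 (0.55 ± 0.42, SE; limma adjusted p = 0.520), and its dimmer probe sets went both ways, from -0.97 to 0.59. MAGEE2 read 103.3 against 40.4 and 99.6 and was not past the filter. MAGED4 and MAGED4B share probe sets with other genes and were not named.

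Among type I genes 1 of 6 past the filter passed the test, and it fell. MAGEA1, a cancer-testis antigen first found in melanoma, had a scrambled signal of 3263 and siRNA signals of 864.2 and 1034 (log2 difference -1.74 ± 0.27, SE; limma adjusted p = 0.0318). Its probe set is of a type that can also bind related transcripts, and the MAGEA genes are close copies. No call was made when dim probe sets were kept (limma adjusted p = 0.119), when the filter was set at the 75th percentile (0.0572) or when the trend was dropped (0.128). Of all genes tested 1.17% were called lower. MAGEC1 read 2991.5 against 1583 and 1849 (-0.79 ± 0.25, SE; limma adjusted p = 0.144) and MAGEA4 read 1546 against 2747 and 2543 (0.76 ± 0.24, SE; limma adjusted p = 0.145). MAGEA6 and MAGEA12, also of the kind of probe set that can bind copies, differed by 0.28 and 0.29. The list's median was 0.21, against 0.097 over all genes tested, with 3 of the 6 at an unadjusted p under 0.05, where 23.1% of all genes tested were.

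Of the ligases, substrates and regulators that MAGE complexes work with, 0 of 10 past the filter were called by limma and 0 had an unadjusted p under 0.05 (2.72% and 23.1% of all genes tested), with a median of 0.069, or -0.10 with arrays centred. TRIM27, the ligase partner of MAGEL2, read 5713 against 4779 and 4814 (limma adjusted p = 0.564), and USP7 read 5802 against 8584 and 5810 (limma adjusted p = 0.618). NSMCE1, the ligase partner of MAGEF1, differed by 0.49 ± 0.22 (SE; limma adjusted p = 0.267), CIAO2B, a partner of MMS19, by -0.44 ± 0.27 and the conjugating enzyme gene UBE2O by 0.34 ± 0.31. MMS19 itself read 1869 against 1993 and 1950.

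The WASH complex and retromer, which sort cargo from endosomes, had 0 of 11 called by limma and 2 with an unadjusted p below 0.05 (2.72% and 23.1% of all genes tested). The median was 0.21, or 0.038 with arrays centred. The retromer subunit gene VPS29 read 8427 against 14206 and 15820 (0.83 ± 0.19, SE; limma adjusted p = 0.0774), and WASHC3 read 4940 against 7237 and 8412 (0.65 ± 0.22, SE; limma adjusted p = 0.154). VPS26B differed by 0.54 ± 0.32. Of the SMC5/6 complex, 0 of 6 were called by limma and 1 had an unadjusted p under 0.05 (2.72% and 23.1% of all genes tested). This was SMC5 (0.77 ± 0.25, SE; limma adjusted p = 0.145). The median was 0.36, or 0.19 with arrays centred, and NSMCE2 differed by 0.44 ± 0.23.

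In the list of the Prader-Willi region and its flanks, 0 of 11 were called by limma and 5 had an unadjusted p under 0.05 (2.72% and 23.1% of all genes tested), with a median of 0.14, or -0.026 with arrays centred. The receptor subunit gene GABRA5 read 785.1 against 364 and 227.6 (-1.31 ± 0.38, SE; limma adjusted p = 0.121), and its dimmer probe sets differed by 0.78 and -0.48. TUBGCP5, a gamma-tubulin complex gene, read 351.1 against 917 and 829.5 (1.21 ± 0.30, SE; limma adjusted p = 0.0860), and its other probe set differed by 0.45. UBE3A, the Angelman syndrome ligase gene, expressed from the maternal copy in neurons, had signals of 9988.5 (scrambled), 7109 and 5674 in the brightest of its probe sets (limma adjusted p = 0.171). The next UBE3A probe sets read 6122 against 6266 and 4353, and 4188.5 against 4518 and 2804, so that siRNA array 1 was not below the scrambled array there. Most SNRPN and SNURF probe sets name several genes and were left out, and OCA2, the pigmentation gene of the region, read 10402 against 9661 and 10499.

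Genes whose proteins bind necdin or MAGED1 had 0 of 5 called by limma and 0 at an unadjusted p under 0.05 (2.72% and 23.1% of all genes tested). The median was -0.12, or 0.20 over the 10 genes measured with no filter. E2F1 differed by 0.59 ± 0.38 in its brighter probe set and by 1.51 ± 0.43 in the other (limma adjusted p = 0.115), SIRT1 by -0.58 ± 0.29 and MSX2 by 0.37 ± 0.35 (SE each). NGFR, which encodes p75, read 222.2 against 24.5 and 133.5 and did not pass the filter. Of imprinted genes outside chromosome 15, 0 of 12 were called by limma and 2 had an unadjusted p under 0.05 (2.72% and 23.1% of all genes tested). The median was 0.027, or -0.14 with arrays centred, and its sign differed between siRNA array 1 (-0.18) and siRNA array 2 (0.21). PHLDA2 read 5968 against 1852 and 3398 (-1.23 ± 0.36, SE; limma adjusted p = 0.118), PLAGL1 differed by 1.08 ± 0.42 and CDKN1C by -0.59 ± 0.36. No gene of the imprinted or the Prader-Willi region list was called higher.

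**Figure D4:**
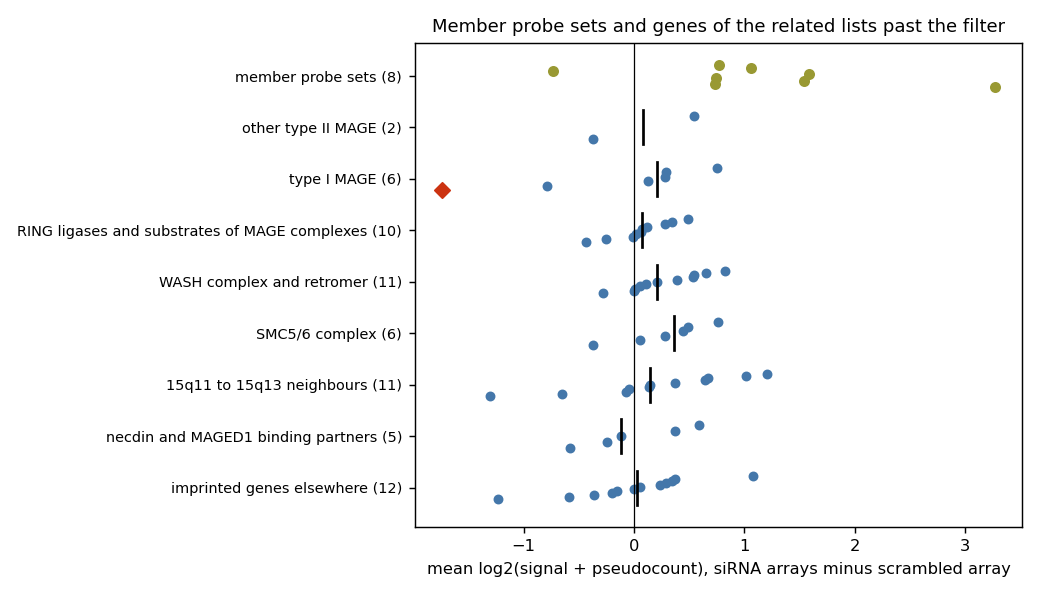
Mean log2 difference (siRNA arrays minus scrambled array) of the 8 type II MAGE probe sets past the filter (olive) and of the genes of each related list past the filter (blue), with the number in brackets and the list median as a black bar. The red diamond is MAGEA1, the 1 gene of these lists that passed the limma threshold.

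On the log2(signal + 47.4) scale the genes whose pattern over the 3 arrays was most like that of MAGEL2 were TRIM47, RRAS, CPNE2, CPVL and LUM. Likeness was the distance between log2 values centred over the 3 arrays, among 12375 other genes past the filter, and it was 0.12, 0.19, 0.21, 0.21 and 0.29 in that order. The list rests on the pseudocount, since MAGEL2 is not above background on the scrambled array: 3 of the 5 stayed among the nearest 5 with a pseudocount of 15.5, and 1 with 177.5, where CPVL came to place 1150 and LUM to place 411. Of these genes, 3 also read under 97.2 on the scrambled array: TRIM47 (34.8 against 766.8 and 799.5), RRAS (7.3 against 408.3 and 417.3) and CPNE2 (26.9 against 557.7 and 596.1). CPVL read 653.6 against 5876 and 6655. With 1 scrambled array and 2 siRNA arrays any gene that was low on the former and level on the latter comes out alike, and none of the 5 lies on chromosome 15.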

How the data were processed

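Probe set intensities of 3 arrays were used as the authors deposited them, on a linear scale, from GCOS 1.3 per the submitters' processing notes. Their annotation build was not given in the sources used here. The 2% trimmed mean of each array was close to 1000 (1000.14, 1000.12 and 1000.13). Of 54675 probe sets, 62 controls were left out, and 41091 name 1 gene, 1801 several and 11721 none in the platform annotation. Signals were taken as log2(signal + 47.4), 47.4 being the 25th percentile of all signals. Probe sets above the median mean log2 value (27306, 12382 genes) were fitted with limma 3.58.1 in R 4.3.3 (lmFit, eBayes with trend, Benjamini-Hochberg at 0.05, two-sided, 1 residual degree of freedom plus 6.36 from moderation, the scrambled array being assumed to vary like the siRNA arrays). Where a gene had several probe sets, the one of highest mean signal stood for it. Named were all probe sets of the 7 genes, MELTF, the called genes of each related list (filled up to 3 with the largest differences) and the 5 genes most like MAGEL2; other genes named were chosen after their values were seen, as was the 97.2 level. The members and lists were chosen with earlier results of these data known. Alternatives were 2 other pseudocounts, 2 other filters, 2 other scalings, no trend, probe set means and leaving out each siRNA array. Promoters and figures were made in Python 3.11.15.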

Additional observations from a re-analysis of the deposited data

Results flagged for a closer look

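Ribosomal RNA control probe sets, 6 in all and used in no comparison, were brighter on siRNA array 1, with a median ratio to the scrambled array of 3.76, against 1.06 for siRNA array 2. The type II MAGE differences on siRNA array 2 alone were 3.22 for MAGEL2, 0.80 for NDN, 1.92 for MAGED1, 1.08 for MAGEH1 and -0.62 for MAGEF1.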

How the results depend on the processing

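The 8 type II MAGE probe sets higher on both siRNA arrays and the 1 lower kept their direction under every pseudocount, scaling and left-out array tried. Only the scalings could have turned a direction, since each probe set read on the same side of the scrambled array on both siRNA arrays. Of 61 recomputed differences 43 moved by less than 1 SD, 18 by more and 0 changed sign. Part of the 43 was fixed in advance. Leaving out 1 of 2 siRNA arrays always moves the mean by less than 1 SD. The probe set mean of a gene with 1 probe set cannot move. No test can be made with 1 siRNA array left out, since no residual degree of freedom remains. The number of probe sets called by limma was 571, and it was 1 with no filter, 9 with the filter at the 75th percentile, 1 without the trend, 357 with quantile normalization (203 higher and 154 lower) and 1528 with arrays centred, where the split was 594 higher and 934 lower in place of 324 and 247. Probe sets with a 2-fold or larger difference on each siRNA array numbered 1573 (1073 higher, 500 lower). The number was 957 with the pseudocount at the median, 3210 with no filter and 659 with the filter at the 75th percentile. It was 1471 with arrays centred (708 higher, 763 lower) and 1397 with quantile normalization (775 higher, 622 lower). With 1 siRNA array left out it was 2578 to 3379. Only the other array then had to pass, so the number could not fall. Of the related lists 1 gene was called, 0 with no filter, 0 with the filter at the 75th percentile, 0 without the trend, and 3 with arrays centred (MAGEA1, GABRA5 and PHLDA2, all lower). The median of the other type II genes, 0.086 over 2 genes, was -0.084 with arrays centred, -0.073 with quantile normalization and -0.37 with no filter or the 75th percentile filter, and that of the imprinted genes was -0.17 with the 75th percentile filter and -0.071 with quantile normalization. The ranks of the genes most like MAGEL2 under other pseudocounts were added after seeing the data. The cause was not tested. No paired analysis was possible because the scrambled group has 1 array and its label carries no replicate number. The lone scrambled array limits every value, and signals under 97.2 (MAGEL2 and the dimmer MAGEE1 probe set) give only lower bounds.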
